A study of Mus musculus with 6 samples.

Results

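The forkhead, Sox, T-box and Pax families of transcription factors were described in immortalized mouse fibroblasts (MF). The members were taken by gene symbol, as every row of the deposited table named Fox with a class letter from a to s and a number, or Sox, Tbx or Pax with a number. This gave 54 of the 19078 genes of the table, with 28 forkhead, 10 Sox, 9 T-box and 7 Pax genes. In the RefSeq annotation of GRCm38, 85 symbols follow the same spelling, and 31 of them were not analysed here. RNAseq was performed on poly(A)-selected RNA from 3 *Ms4a15* OE and 3 control libraries. *Ms4a15* OE cells carry a CRISPR activation system whose guide raises *Ms4a15* from its own locus, and they are a selected pool and not a clone. The genotype of control cells is wild type in the sample labels, and the study's methods add that they received an empty lentivirus. Both groups derive from embryonic fibroblasts with a conditional *Gpx4* allele and Cre-ERt2, a Cre recombinase that responds to tamoxifen, and the labels give no treatment for these libraries. The question of the study, which genes differ between the groups, is not answered here. The columns of fold changes and p-values in the table are the authors' own comparison and were not used. The value that was used is the mean over all 6 libraries of the normalized count, which is the number of reads on a gene divided by the size factor of its library. For most members, a gene present in a single group and a gene at a lower level in both groups therefore cannot be told apart, and no SD over replicates can be given for this mean.

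The 4 families share the property that each binds DNA through a fold that names it. Forkhead proteins use a winged helix, Sox proteins an HMG box that bends the minor groove, T-box proteins the T domain first described in Brachyury, and Pax proteins a paired domain, in some members with a homeodomain. Many members set position and lineage in the embryo, such as cartilage for SOX9, limb and body wall mesenchyme for several T-box proteins and the pharyngeal pouches and sclerotome for PAX9. Others act in nearly every cell, such as FOXM1 in mitosis, the FOXO proteins downstream of insulin and AKT, and the FOXK proteins in metabolism and autophagy.

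The labelled cell type was checked against marker genes. Of 15 fibroblast markers, 14 were in the table, and 10 reached 1000 normalized counts. *Col1a2* at 135155, *Vim* at 115135 and *Fn1* at 114243 led, while *Dcn* was at 12.1 and *Lum* at 0.675. The 8 epithelial markers had a median of 0.847 with *Epcam* at 0.176, and *Krt14*, a keratin of basal epithelium, was highest at 170. Of 7 endothelial markers, 6 were in the table, with a median of 15.5, *Flt1* at 147 and *Cdh5* at 107. Of 7 leukocyte markers, 5 were in the table, with a median of 11.1, *Cd68* at 164 and *Ptprc* at 11.1. Of 6 muscle markers, only *Des* and *Acta1* were in the table, at 119 and 5.42. Of 7 neural and glial markers, 5 were in the table, with *Tubb3* at 2463 and a median of 2.03. *Ms4a15*, the gene targeted by activation, had a mean of 638 over both groups. That mean does not check the labels of single libraries. Whether a low marker or member stands for few cells or for little RNA per cell cannot be told apart in such bulk libraries. The means of the 54 members added up to 47020 normalized counts.

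The members fell into a high and a low range of levels. The mean reached 100 normalized counts in 24 members (44.4%, against 54.7% of all genes) and 1000 in 12 (22.2%, against 35.0%). At the other end, 12 members (22.2%, against 16.2% of all genes) had a mean under 1 normalized count. The lowest mean of all genes, 0.147, is that of 1 read in 1 library, so these shares cover only genes with reads. The median of the members was 20.7 normalized counts and that of all genes 237. No member lay between *Pax2* at 27.2 and *Tbx1* at 182, a range that held 9.91% of all genes. These limits were set by the members after their values were seen, so this gap is a description only.

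**Figure D1:**
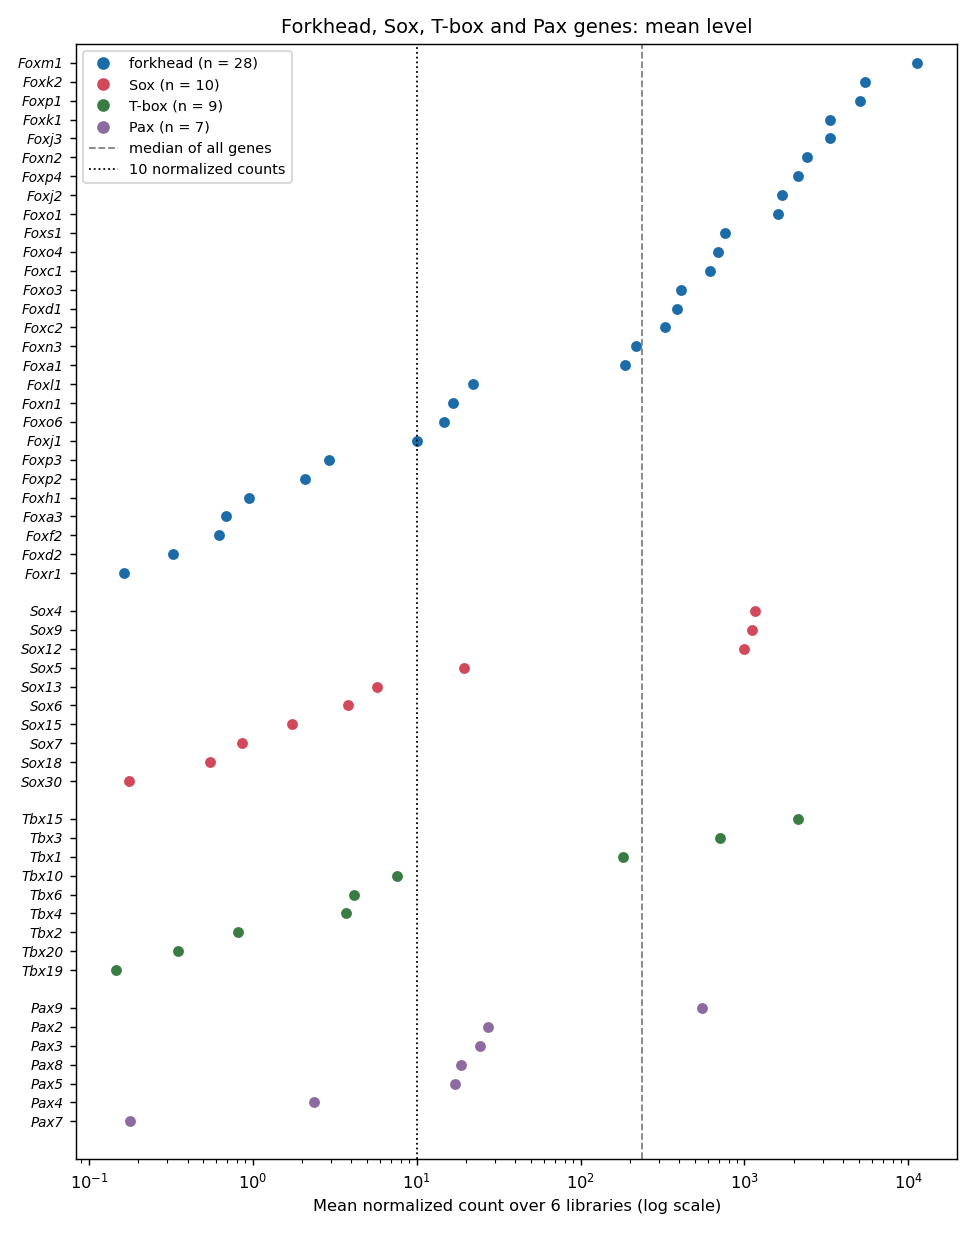
Mean normalized count over all 6 libraries (x axis, log scale) of each of the 54 members, ordered by level within family (y axis), with 1 point per gene and no error bar because the mean pools both groups. The dashed line marks the median of all genes (237) and the dotted line 10 normalized counts, and no point lies between 27.2 and 182.

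Of the 28 forkhead genes, 9 were above 1000 normalized counts (against 35.0% of all genes), out of 12 members at that level. *Foxm1*, which drives the genes of G2 phase and mitosis, was highest with 11345 normalized counts, above 96.5% of all genes. It lies on the forward strand of chromosome 6 of GRCm38 from 128362967 to 128376146. Both FOXK genes, whose products also bind through a forkhead-associated domain, also had high levels, *Foxk2* at 5463 and *Foxk1* at 3346. Of the FOXP genes, which repress transcription as dimers, *Foxp1* was at 5097 and *Foxp4* at 2134, whereas *Foxp3*, the factor of regulatory T cells, was at 2.94 and *Foxp2*, known for its part in speech circuits, at 2.09. The class J genes divided in the same way, with *Foxj3* at 3334 and *Foxj2* at 1683 but *Foxj1*, the regulator of motile cilia, at 9.99. The 4 FOXO genes of the table were spread widely, with *Foxo1* at 1592, *Foxo4* at 686, *Foxo3* at 408 and *Foxo6* at 14.6. In class N, *Foxn2* was at 2420 and *Foxn3*, a repressor linked to cell cycle checkpoints, at 217, and *Foxn1*, the factor of thymic and skin epithelium, was at 16.6.

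The forkhead genes known from mesenchyme spread over a wide range, from 761 to 0.620 normalized counts. *Foxs1*, known from perivascular cells and neural crest, was the highest of them, with *Foxc1* at 617, *Foxd1*, a marker of kidney stroma, at 390 and *Foxc2* at 326. FOXC1 and FOXC2 are close relatives in paraxial mesoderm, vessels and eye. *Foxl1*, known from gut mesenchyme, was at 22.0, and *Foxf2*, another gene of gut and lung mesenchyme, at 0.620. *Foxa1*, a pioneer factor of endoderm and breast epithelium, was at 187, while its relative *Foxa3* was at 0.686. *Foxh1*, the partner of SMAD proteins in nodal signalling, was at 0.946, *Foxd2* at 0.328 and *Foxr1* at 0.163. In total, 17 of the 28 forkhead genes were at 100 normalized counts or more (against 54.7% of all genes). A further 3 were between 10 and 100, 3 between 1 and 10 and 5 under 1 (against 16.2% of all genes).

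Of the 10 Sox genes, 3 were at 988 normalized counts or more and the next was at 19.3. *Sox4* and *Sox12*, both of the SoxC group and active in progenitor cells, were at 1151 and 988. *Sox9*, the SoxE factor needed for cartilage, was at 1106 and lies on chromosome 11 from 112782224 to 112787760. Its partners in cartilage from the SoxD group were lower, *Sox5* at 19.3 and *Sox6* at 3.80, with *Sox13* at 5.71. The SoxF genes of endothelium, *Sox7* and *Sox18*, were at 0.857 and 0.552. *Sox15*, the SoxG gene, was at 1.72 and *Sox30*, a gene of male germ cells, at 0.176.

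A single gene carried most of the T-box signal. *Tbx15*, a factor of limb skeleton, skin and fat precursors on chromosome 3 from 99240381 to 99354259, was at 2117 normalized counts. *Tbx3*, a repressor known from limb and mammary gland that delays senescence, was at 705. *Tbx1*, the pharyngeal gene of the DiGeorge region, was at 182. The other 6 were below 10, with *Tbx10* at 7.54, *Tbx6*, a gene of presomitic mesoderm, at 4.14 and *Tbx4*, the gene of hindlimb and lung mesenchyme, at 3.70. *Tbx2*, the nearest relative of *Tbx3*, was at 0.812, the heart gene *Tbx20* at 0.352 and the pituitary gene *Tbx19* at 0.147.

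Among Pax genes, *Pax9* was at 554 normalized counts and lies on chromosome 12 from 56691767 to 56712822. The 3 genes of the group formed by *Pax2*, *Pax5* and *Pax8*, known from kidney, B cells and thyroid, were at 27.2, 17.3 and 18.7. *Pax3*, a factor of neural crest and muscle precursors, was at 24.4 while *Pax7* of muscle satellite cells was at 0.178. *Pax4*, a gene of pancreatic islets, was at 2.36.

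Levels of different genes were compared per kb of transcript, taken as the merged exons of each gene, since a longer transcript gives more reads. On this scale the order began with *Foxm1* at 2439 normalized counts per kb, followed by *Foxk2* at 1086 and *Foxp1* at 649. Counting error alone gave 95% Poisson intervals from 2421 to 2457, from 1074 to 1098 and from 642 to 657, which did not overlap. *Tbx15*, *Foxj3* and *Foxs1* came next at 594, 584 and 581 per kb, and the interval of *Tbx15* (583 to 604) overlapped that of *Foxj3* (576 to 592), as did that of *Foxs1* (564 to 598). These 3 could therefore not be put in order on this scale. The order also depends on the length used. Per kb of coding sequence *Tbx15*, *Foxj3* and *Foxs1* were at 1172, 1764 and 771. *Foxs1* rose in the order from 761 normalized counts because its transcript is short, at 1.31 kb, and *Foxo1* moved behind *Foxo4*, with 184 and 217 per kb. Per kb of coding sequence *Foxo1* was ahead, at 814 against 453 for *Foxo4*. *Sox9* at 268, *Sox4* at 240 and *Sox12* at 222 per kb were separated by counting error, but *Sox12* overlapped *Foxo4*. Below *Foxn3*, at 26.9 per kb, every neighbouring pair overlapped. Of the 53 neighbouring pairs in the whole order, 35 overlapped. These intervals leave out the spread between libraries, which would widen them. The median over the members was 6.22 normalized counts per kb, and that of the 14676 genes with a transcript length was 165.

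**Figure D2:**
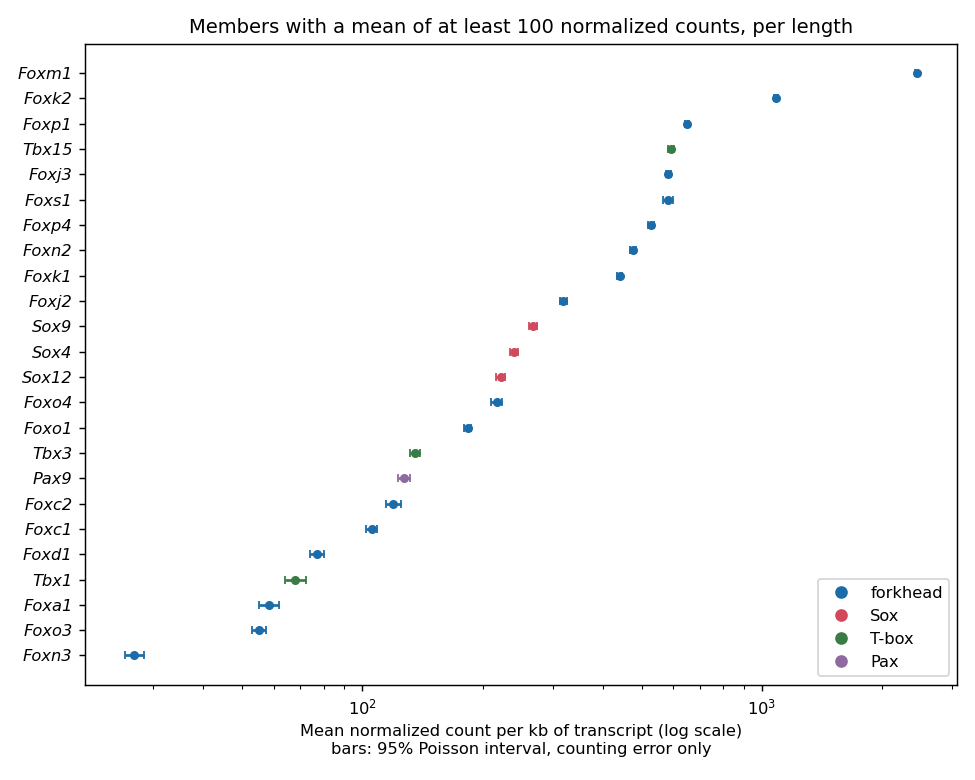
Mean normalized count per kb of transcript (x axis, log scale) of the 24 members that reached 100 normalized counts, in order of this value (y axis) and coloured by family. Bars are 95% Poisson intervals for counting error only, and those of *Tbx15*, *Foxj3* and *Foxs1* overlap near 590 while *Foxm1* stands alone at 2439.

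The families differed in how far 1 gene dominated the sum. Per kb, *Foxm1* took 30.6% of the forkhead sum, *Sox9* 36.3% of the Sox sum, *Tbx15* 73.7% of the T-box sum and *Pax9* 84.3% of the Pax sum. Without the length correction *Sox4* led the Sox genes, with 35.1%, and per kb of coding sequence *Sox12* led, with 39.4%. The leading gene of the other 3 families was the same on all 3 scales. Within subfamilies, *Foxd1* took 99.8% of the FoxD sum per kb, *Foxa1* 99.4% of the FoxA sum, *Tbx3* 99.0% of the sum over *Tbx2*, *Tbx3* and *Tbx4*, and *Pax3* 99.5% of the sum over *Pax3* and *Pax7*. Sums in the FoxC, SoxC and FoxO groups were divided more evenly, led per kb by *Foxc2* (53.1%), *Sox4* (52.0%) and *Foxo4* (47.0%). The leader in these groups depended on the scale. Per kb of coding sequence *Foxc1* (62.8%), *Sox12* (54.6%) and *Foxo1* (55.5%) led. Without length correction *Foxc1* (65.4%), *Sox4* (53.8%) and *Foxo1* (59.0%) led.

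For the lowest members the reads of each library could be read back from the mean. A mean over 6 libraries is a sum of whole reads, each worth a fixed amount that depends on the size factor of its library. The 6 commonest values of the table are those of genes with 1 read in 1 library, which occurred in 149 to 242 genes per library, and they gave size factors of 0.887, 0.938, 0.946, 1.02, 1.11 and 1.14. The libraries are named A to F here in that order. No label ties a letter to *Ms4a15* OE or control, so the letters are not groups, and reads by letter are described without a test. All 5879 genes with a mean under 8 normalized counts matched whole reads to within 1.5e-09, and for 5877 of them 1 combination of reads fitted, among them all 21 members in this range. A count of 0 in a library allows up to 3 reads, which corresponds to between 2.64 and 3.38 normalized counts.

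*Tbx10* had 3, 6, 9, 1, 13 and 15 reads in libraries A to F, 47 in all (95% exact Poisson interval from 34.5 to 62.5). *Sox13* had 5, 6, 5, 1, 6 and 12 reads, 35 in all. Both had reads in every library, with the fewest in D and the most in F. *Tbx6* had 4, 4, 5, 1, 6 and 5 reads, so that D was again lowest and the other 5 libraries lay within 2 reads of each other. *Sox6* had 2, 1, 9, 1, 7 and 3 reads, with 16 of its 23 reads in C and E. *Tbx4* had 0, 0, 5, 0, 8 and 11 reads. All 24 of its reads were thus in C, E and F, and A, B and D had none. Most reads of *Tbx10*, *Sox13*, *Tbx6* and *Sox6* were in C, E and F too. These are raw reads, and E and F have the largest size factors, 1.11 and 1.14. How many of all low genes have most of their reads in C, E and F was not counted. Low genes of the whole table fell into the same sets of libraries, as described at the end. *Foxp3* had 3, 7, 0, 6, 1 and 0 reads, so that A, B and D held 16 of 17. The gene overlaps *Ccdc22* and *Ppp1r3f* on the opposite strand, at 1449 and 136 normalized counts, over 1437 and 640 bases. Whether reads were assigned by strand is not given in the sources used here, and the part of these neighbours in the 17 reads was not tested.

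*Pax4* had 2, 4, 1, 4, 1 and 2 reads, most of them in A, B and D. *Foxp2* had 0, 2, 3, 2, 1 and 5 reads, most of them in C, E and F. In neither gene was a single library far from the others. *Sox15* had 0, 2, 0, 2, 4 and 3 reads. Of the 12 members with a mean under 1 normalized count, none had more than 6 reads in all. *Foxh1* had 6 and *Sox7* and *Tbx2* 5 each, and *Pax7*, *Sox30*, *Foxr1* and *Tbx19* had 1 read in 1 library each. A total of 1 read has a 95% exact Poisson interval from 0.0253 to 5.57 reads, so the order among these genes is not fixed by the data. *Foxf2* had its 4 reads in C, E and F, with 1, 1 and 2. The 21 members had reads in all 6 libraries in 5 cases, in 5 libraries in 1, in 4 in 3, in 3 in 5, in 2 in 2 and in a single library in 5. With 3 libraries per group, the 9 members with reads in at least 4 libraries had reads in both groups, whichever letters belong to which group: *Tbx10*, *Sox13*, *Tbx6*, *Sox6*, *Pax4*, *Foxp2*, *Foxp3*, *Sox15* and *Sox7*. *Foxj1*, at 9.99, and all higher members lie above the range in which reads were read back.

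**Figure D3:**
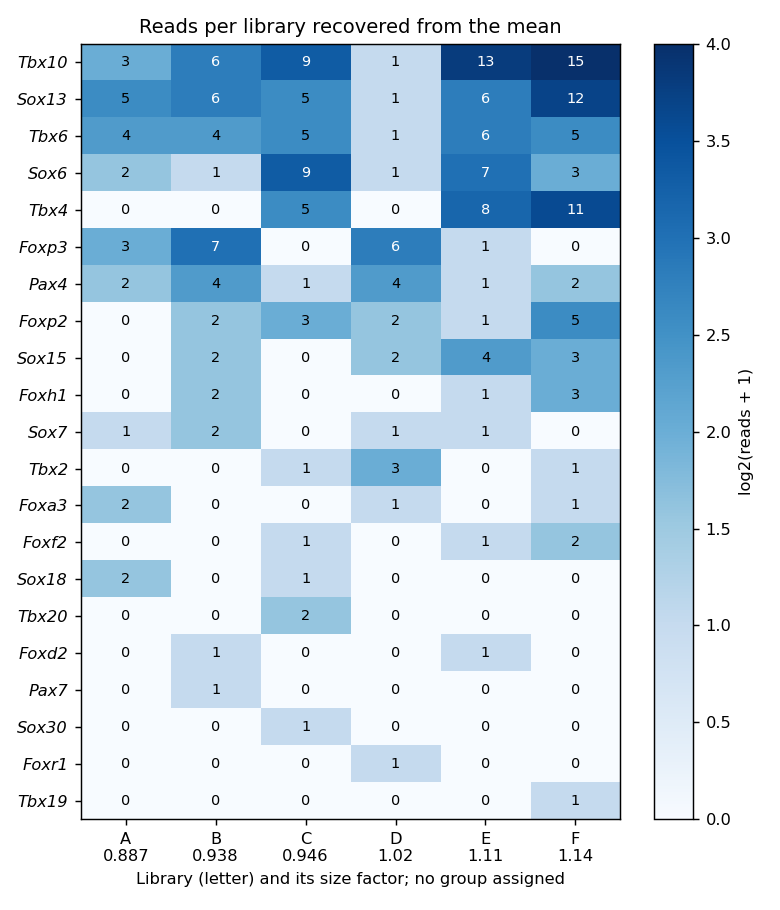
Reads in each of libraries A to F (x axis, with size factors) for the 21 members with a mean under 8 normalized counts (y axis, highest mean at the top), as printed in each cell and shaded by log2(reads + 1). Reads are raw and not divided by the size factors. The 24 reads of *Tbx4* fall in C, E and F, as do most reads of *Tbx10*, *Sox13*, *Tbx6* and *Sox6*. The reads of *Foxp3* and *Pax4* are mostly in A, B and D, and 5 members have reads in a single library.

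Several members are neighbours in the genome, and their levels could be set side by side. There were 6 pairs within 1 megabase. *Foxf2* and *Foxc1* lie 175 kb apart on chromosome 13 and differed most, with 0.262 and 106 normalized counts per kb, a ratio of 402. *Foxf2* rests on 4 reads, and its level has a 95% Poisson interval from 0.0674 to 0.692 per kb. The ratio is thus known only roughly. *Foxc2* and *Foxl1*, 9.04 kb apart on chromosome 8, were at 120 and 8.14 per kb, a ratio of 14.7, with counting intervals far apart (114 to 125 and 6.81 to 9.65). The annotated gene *Gm20388* overlaps both on the same strand, over 2725 and 2705 bases, and its part in their reads was not tested. *Foxj3* and *Foxo6* on chromosome 4, 638 kb apart, were at 584 and 5.58 per kb. *Tbx2* and *Tbx4*, 44.5 kb apart on chromosome 11, were both low, at 0.224 and 1.09 per kb, with counting intervals that did not overlap (0.0717 to 0.527 and 0.684 to 1.64). Those intervals leave out the spread between libraries. All 24 reads of *Tbx4* were in C, E and F, and in D *Tbx2* had 3 reads and *Tbx4* none. *Pax9* and *Foxa1* on chromosome 12, 828 kb apart, were within a ratio of 2.18 of each other, and *Sox12* and *Foxs1* on chromosome 2, 534 kb apart, within 2.62.

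The start sites of the members differed in their content of CpG, the dinucleotide that is dense at the promoters of widely expressed and of developmental genes. RefSeq start windows of 300 bases, 250 before the start and 50 after it, were matched for 35 of the 54 members, with 46 windows in all. The 150 bases before the start are shown for 4 members, 5' to 3' on the strand of the gene, with each CpG in capitals. *Foxk2* is the highest member with a window and has the most CpG, *Foxc1* and *Foxf2* are the neighbours with the largest difference in level, and *Tbx19* is the lowest member. They lie at chr11:121259837-121259986, chr13:31806496-31806645 and chr13:31625666-31625815 on the forward strand and at chr1:165160774-165160923 on the reverse strand of GRCm38.p6.
Foxk2: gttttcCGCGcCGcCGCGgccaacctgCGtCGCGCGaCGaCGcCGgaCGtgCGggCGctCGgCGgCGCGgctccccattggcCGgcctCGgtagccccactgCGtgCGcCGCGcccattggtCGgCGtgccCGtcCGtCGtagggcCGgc
Foxc1: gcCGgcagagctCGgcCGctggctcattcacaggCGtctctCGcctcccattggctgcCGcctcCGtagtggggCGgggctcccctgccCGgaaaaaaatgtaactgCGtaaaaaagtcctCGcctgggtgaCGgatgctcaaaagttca
Foxf2: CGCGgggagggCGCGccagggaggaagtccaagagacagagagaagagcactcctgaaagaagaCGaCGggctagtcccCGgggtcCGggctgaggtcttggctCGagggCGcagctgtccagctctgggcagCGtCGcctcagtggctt
Tbx19: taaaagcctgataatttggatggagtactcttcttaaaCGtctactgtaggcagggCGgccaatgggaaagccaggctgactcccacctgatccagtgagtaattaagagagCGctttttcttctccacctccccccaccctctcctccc

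In these stretches *Foxk2* had 31 CpG, *Foxc1* and *Foxf2* 12 each and *Tbx19* 3. Over the full windows the numbers were 59, 32, 27 and 7. *Foxc1* and *Foxf2* thus had similar CpG content, although their levels differed by the ratio given above. For genes with several windows, the window with the most CpG was used. The classes of level below hold only genes with a window. Of the 24 members that reached 100 normalized counts, the 15 with a window had a median of 32 CpG and a range from 6 to 59. The median was 23 for the 7355 such genes of the table (quartiles 16 and 31). Among these 15 members *Foxn3*, *Pax9* and *Sox4* had the fewest, with 6, 11 and 12. The 5 members with a window between 10 and 100 normalized counts went the other way, with a median of 8 against 13 for the 1048 such genes. The 7 members with a window between 1 and 10 had a median of 8, as did the 1344 such genes. The 8 members with a window under 1 normalized count had a median of 24 and a range from 7 to 28. The median was 7 for the 1459 such genes (quartiles 3 and 16). *Sox30*, *Foxf2*, *Foxd2* and *Tbx20*, at 28, 27, 26 and 26 CpG, were above the upper quartile of genes at their level, as were *Foxa3* at 22 and *Pax7* at 17, whereas *Foxr1* at 16 and *Tbx19* at 7 were not. Over all 35 members the median was 23, against 20 for the 11206 genes of the table with a window. These differences were not tested, as genes are not replicates. The forkhead motif GTAAACA, read on both strands, was found in 2 of the 46 windows (4.35%, against 3.65% of all 32851 windows), those of *Foxa1* and *Sox12*. The Sox motif ACAATG was in 5 (10.9%, against 12.6%) and the T-box motif AGGTGTGA in none (against 1.28%).

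**Figure D4:**
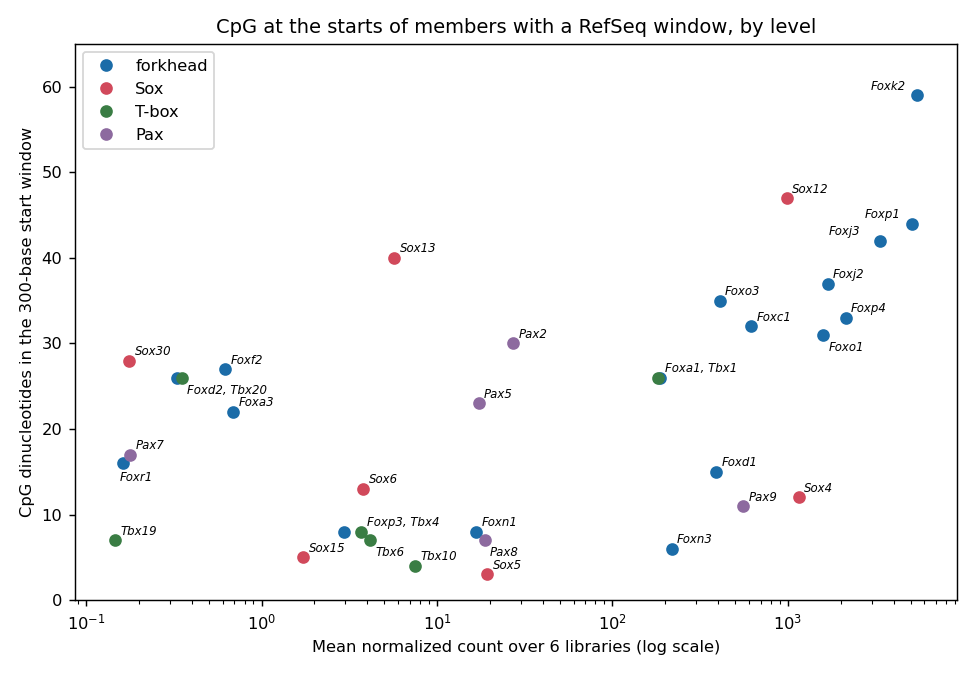
CpG dinucleotides in the 300-base window at the start (y axis) of the 35 members with a RefSeq window, against their mean normalized count over 6 libraries (x axis, log scale), 1 point per gene coloured by family. Members above 100 normalized counts reach from 6 CpG (*Foxn3*) to 59 (*Foxk2*), and of those under 1, *Sox30*, *Foxf2*, *Foxd2* and *Tbx20* have 26 to 28.

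Genes that act with these factors were described from lists of known regulators, partners and targets. Of 28 listed genes upstream of FOXO proteins, 27 were in the table, and 24 were at 1000 normalized counts or more (against 35.0% of all genes). Among them were *Akt1*, a kinase that keeps FOXO proteins out of the nucleus, at 15428, and the 14-3-3 genes *Ywhae* and *Ywhag*, whose products hold them in the cytoplasm, at 36749 and 20304. *Sfn*, another 14-3-3 gene, was lowest at 81.1. Of 20 listed FOXO targets, 17 were in the table, and 16 were at 100 or more (against 54.7% of all genes). They were led by *Cited2* at 5773, *Cat*, which encodes catalase, at 4834 and the mitochondrial dismutase gene *Sod2* at 3574, and *Klf15* was lowest at 4.67. Of 12 mitotic genes listed as FOXM1 targets, 11 were in the table. All 11 were at 1000 or more, from *Ccnb2* at 3877 to *Cdk1* at 15991, with a median of 8158.

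Cartilage genes known as SOX9 targets were mostly low. Of 9 in the table, 2 were at 100 normalized counts or more, *Col11a1* at 2037 and *Col2a1*, the main collagen of cartilage, at 349, and *Acan*, the large cartilage proteoglycan, was at 0.700. Of the genes that act with SOX2 in pluripotent cells, *Klf4* was at 943 and *Nanog* at 0.900, and the median of the 7 in the table was 1.84. In the network of PAX partners, 8 of 12 listed genes were in the table, and 7 were at 100 or more (against 54.7% of all genes). *Eya3* was at 3186, *Six4* at 923, *Eya4* at 911 and *Eya2* at 1.07. The genes of the Groucho family, some of whose products bind forkhead, Pax and T-box proteins as corepressors, were led by *Aes* at 3239. *Tle3* was at 1786 and *Tle1* at 1390, and *Tle2* was lowest at 90.4. Of 9 listed heart partners of T-box proteins, 5 were in the table, among them the member *Tbx20*. *Smarcd3* was at 585, *Mef2c* at 445, *Gata4* at 17.5 and *Gata6* at 0.490. *Mga*, a T-box gene whose symbol falls outside the spelling used, was at 2104 normalized counts or 151 per kb, between *Foxo1* and *Tbx3* in the order per kb, while *T*, the gene of Brachyury, was at 8.48 and *Tbr1*, a T-box gene of cortical neurons, at 4.65.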

How the data were processed

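RNA from 3 *Ms4a15* OE and 3 control libraries was analysed from a single deposited table. Per the study's methods, the authors aligned reads to mm10 with STAR, used HTSeq-count for reads on genes and DESeq2 for the comparison, whereas the submitters' processing notes also name TopHat, Cufflinks and Cuffdiff. The deposited signal used here is 1 mean per gene, which the authors made from the size-factor-normalized counts of the 6 libraries with no correction for length. Its 5 other columns hold the authors' fold changes with their errors, p-values and direction and were not used. A count model over all genes had been planned and could not be run, since the column used has 1 value per gene, and no comparison of the groups is given.

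Members were named by the rule that all at or above 10 normalized counts, the 3 highest below that in each family and those with recovered reads are given with values, and of each list at most the 3 highest genes and the lowest, with further genes chosen after their values were seen. Members and lists were chosen with earlier results of these data known. Transcript and coding lengths were merged exons of the GENCODE vM21 basic annotation on GRCm38, matched by symbol for 14676 genes. Reads per library were solved as whole numbers under 8 normalized counts, with a tolerance of 1.5e-09, and the procedure was tested on simulated data. Intervals are 95% Poisson intervals, exact for totals of recovered reads, and, like the floor of 3 reads, cover counting error only. For intervals per kb the reads of every member were taken as the mean times the sum of the size factors, which need not be a whole number. Depth enters only as relative size factors, and total reads per library are not known. Alternatives were other minimum means, other lengths and a wider tolerance. Replicates are not stated to be separate cultures. The tools were scipy 1.17.1, pandas 2.3.3 and numpy 2.4.6 under Python 3.11.15, and matplotlib 3.10.9 for plots.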

Additional observations from a re-analysis of the deposited data

How the results depend on the processing

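The comparison of *Ms4a15* OE with control was not run, and with it another count model, another normalization, no filter on low counts, the replicate block and leaving out each replicate in turn. No paired analysis was possible because the column used holds 1 mean over all 6 libraries per gene. The number of members at 10 normalized counts or more, 32, was 35 with a minimum of 5, 27 with a minimum of 20 and 24 with at least 10 normalized counts per kb. The number under 1, 12, was the same when the limit was the mean of 1 read in every library, but that limit is so near 1 that no member lay between them and the count could not have changed. The reads of 21 members were recovered with a tolerance 10 times wider as well. The median of the members, 20.7 normalized counts, was 272 over members at 1 or more, which leaves out the lowest 12, and 6.22 per kb, which is another unit. Without length correction the share was 28.3% for *Foxm1*, 33.8% for *Sox9*, 70.1% for *Tbx15* and 86.0% for *Pax9*, and per kb of coding sequence it was 24.0%, 27.3%, 72.2% and 88.9%. These shares move because the lengths differ between genes. *Sox9* led its family on the scale of transcript length alone. Depth limits the members with 6 or fewer reads in all.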

Other observations

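The recovered reads of all genes, not of the members alone, fell into a pattern by library. Over the 2780 genes with a mean from 1 to 8 normalized counts and a single combination of reads, the log2 values (normalized count plus 0.5, each gene centred on its own mean) were correlated between libraries. Pairs among A, B and D had Pearson correlations of 0.216, 0.254 and 0.306, and pairs among C, E and F ones of 0.275, 0.267 and 0.332. The other 9 pairs had correlations from -0.546 to -0.501. These are correlations across genes within 6 libraries, and genes are not independent replicates. Centring each gene over 6 libraries gives about -0.2 for every pair where libraries of equal spread share nothing, so the values are to be read against -0.2 and not against 0, and they are given as a description. No sample label was attached to the letters, and no test between the 2 sets of libraries was made. Reads of single members were only described by these sets, which were found in the same libraries. Summed over the 21 members, the libraries held 24, 38, 43, 24, 51 and 64 reads from A to F.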
